A study of Ovis aries with 4 samples.

Results

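RYR2, RYR3 and CASQ1 encode parts of the intracellular calcium store. They were chosen by their gene symbols, which match 3 of the 26478 genes listed for the series, and were picked because of earlier values from these same libraries. The identifiers are ENSOARG00020019907 for RYR2, ENSOARG00020004398 for RYR3 and ENSOARG00020015333 for CASQ1. Their levels by kind of library and by class of nuclei are therefore given as descriptions, with no test.

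Ryanodine receptors are large channels in the membrane of the endoplasmic reticulum that let stored calcium into the cytoplasm when calcium itself, or a voltage-gated channel at the cell surface, opens them. RYR2 is best known as the channel of heart muscle and is also the main ryanodine receptor of the forebrain, and RYR3 is a further brain form. Calsequestrins are proteins inside the store that hold calcium in bulk, and CASQ1 is the form of fast skeletal muscle. Medium spiny neurons, the projection neurons of the striatum, use calcium release from such stores beside the calcium that enters through their synapses.

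The data were droplet-based single-cell libraries from frozen striatum of 4 sheep aged 5 years, with no treatment or genotype named in the labels. Papain, a protein-digesting enzyme, freed whole cells for 2 libraries, and a homogeniser with detergent freed nuclei for the other 2. By the sample titles each library was a pool of 2 animals, sheep 1 and 2 in replicate 1 and sheep 3 and 4 in replicate 2 of either kind. The protocol text gives animals 2 and 3 as the source of the second suspension of cells, so the match of animals between the kinds is uncertain there. Unique molecular identifiers (UMIs) each mark 1 captured RNA molecule, and their totals in replicates 1 and 2 were 1115058 and 19241918 for whole cells and 70473292 and 51102420 for nuclei. Mitochondrial genes took 88.7% and 86.9% of the UMIs of whole cells and 0.779% and 0.776% of those of nuclei, so that 125974 and 2512837 molecules of other genes remained in the former. Library pairs shared between 2 and 87 barcodes, and the nuclei libraries shared 29. With 2 libraries a kind, and sums over all barcodes, fewer cells of a type and less RNA per cell cannot be told apart.

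RYR2 was counted in all 4 libraries. Whole cells held 20 UMIs of it in replicate 1 and 1120 in replicate 2, and nuclei held 233663 and 138355. As UMIs per 1000000 UMIs of the library (CPM) these were 17.9, 58.2, 3316 and 2707. Both nuclei libraries stood above both whole cells libraries, and the geometric means differed by 6.53 ± 1.22 on the log2 scale (SD, n = 2 per kind). With mitochondrial genes left out of the totals the levels were 159, 446, 3342 and 2729 CPM and the log2 difference was 3.50 ± 1.07. For scale, the 6.53 can be set beside edgeR's fold change on library size alone, which also keeps mitochondrial UMIs in the totals. Its median over all tested genes was 3.66 on the log2 scale, against 0.61 after composition scaling. The 3.66 is not on the same base as the 3.50, for which no such median was computed.

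RYR3 showed the same order. Its UMIs were 12, 338, 115615 and 74948, or 10.8, 17.6, 1641 and 1467 CPM, for whole cells 1 and 2 and nuclei 1 and 2. The nuclei stood above the whole cells by 6.82 ± 0.51 on the log2 scale, and by 3.79 with mitochondrial genes left out. In whole cells the 12 UMIs of replicate 1 came from 3 barcodes, 1 of which held 9.

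CASQ1 gave no UMI in whole cells, with 0 of 2162 and 0 of 32500 barcodes, which allows shares of up to 0.139% and 0.00923% of barcodes with a UMI. The nuclei had 7707 in replicate 1 and 13619 in replicate 2, or 109 and 267 CPM. A count of 0 allows up to 2.69 CPM in the first whole cells library and up to 0.156 CPM in the second, taking 3 counts per library as the limit, and that limit is for counting error only. Against those limits CASQ1 was at least 40.6-fold higher in nuclei in the pool of replicate 1 and at least 1709-fold higher in that of replicate 2. With mitochondrial genes left out the bounds were 4.63-fold and 225-fold. Of the genes listed, 1131 had at least as many UMIs in nuclei as CASQ1 (21326), and 5 of these, CASQ1 included, had 0 in whole cells. The kind of library, the counting program's version (Cell Ranger 6.0.1 for whole cells and 7.0.0 for nuclei) and the share of mitochondrial UMIs changed together, and their parts in these differences cannot be told apart.

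**Figure D1:**
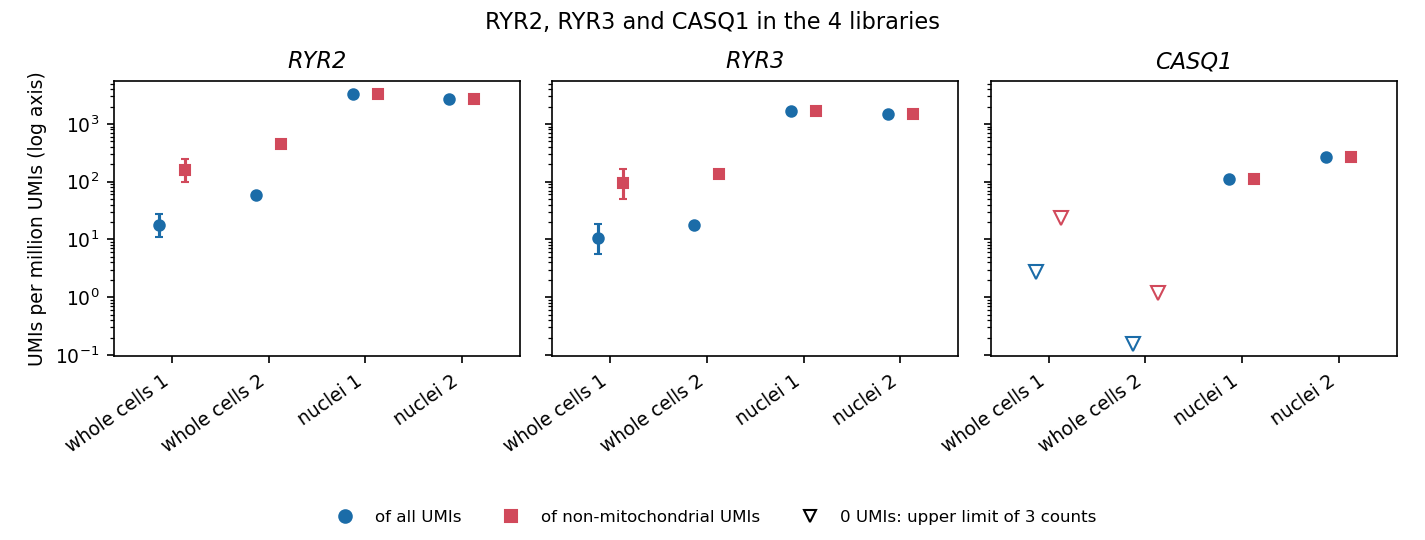
Levels of the 3 genes in CPM on a log axis in each of the 4 libraries, of all UMIs (circles) and of non-mitochondrial UMIs (squares). Bars are exact 95% Poisson intervals, which cover counting error only, and open triangles mark the limit for a count of 0. RYR2 and RYR3 sit at 1467 to 3316 CPM in nuclei and at 10.8 to 58.2 CPM in whole cells.

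In whole cells, most barcodes were too sparse to be placed in a cell type. Of the 32500 barcodes of replicate 2, 269 had at least 200 genes, and these held 320 of the 1120 RYR2 UMIs, 216 of the 338 RYR3 UMIs and 104 of the 130 UMIs of RYR1, the skeletal muscle form of the receptor. In replicate 1, 68 such barcodes held 10 of 20 RYR2 UMIs and 11 of 12 RYR3 UMIs. Restricted to such barcodes, the nuclei stood above whole cells by 3.10 ± 1.40 on the log2 scale for RYR2 and 2.37 ± 0.89 for RYR3 (SD, n = 2 per kind), and by at least 3.21 for CASQ1, with all UMIs of those barcodes in the totals. With mitochondrial genes also left out, the differences were 1.85 ± 1.67 for RYR2, 1.12 ± 1.16 for RYR3 and at least 1.96 for CASQ1. For both receptors these last differences were about the size of the spread between libraries.

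Nuclei were clustered without the calcium store genes, and clusters were named from marker genes. The spiny neuron-like clusters stood out by the markers PDE10A, PHACTR1 and ADCY5, as the label striatum calls for. They held 1252 and 1318 nuclei in replicates 1 and 2, and their makeup differed between the libraries. In replicate 1, cluster 2 (608 nuclei, higher in DRD2, ADORA2A and PENK than the other spiny clusters) and cluster 5 (564 nuclei, higher in TAC1 and EBF1) held most of them. In replicate 2, 932 nuclei were in cluster 18, led by FSHR and MUC15, which had 7 nuclei in replicate 1. The median nucleus of cluster 18 in replicate 2 had 15606.5 UMIs, against 39214 in cluster 2 and 37006.5 in cluster 5 of the same library. The oligodendrocyte-like nuclei likewise lay mostly in cluster 3 in replicate 1 (2850 of 3832) and in cluster 4 in replicate 2 (2112 of 3904).

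RYR2 was high in the spiny neuron-like nuclei of both libraries. Its level was 4933 CPM in replicate 1 and 4366 CPM in replicate 2 (4650 ± 401, SD, n = 2). Interneuron-like nuclei had 1387 and 1647 CPM, and oligodendrocyte precursor-like nuclei had 333 and 273 CPM. With at least 500 genes per nucleus the interneuron-like level of replicate 2 was 1023 CPM (51 nuclei), and with a 20% mitochondrial maximum 1049 CPM (36 nuclei), still above the precursor-like level. Microglia-like nuclei had 80.0 and 95.3 CPM, oligodendrocyte-like nuclei 61.9 and 52.0, and astrocyte-like nuclei 49.7 and 32.0. The order of the 6 classes in RYR2 was the same in both libraries, and no 2 neighbouring classes overlapped in their pairs of values. The order of the last 3 classes did not hold under 2 other filters in replicate 2. With at least 500 genes per nucleus, astrocyte-like nuclei had 75.6 RYR2 CPM and microglia-like nuclei 55.2, and with the highest 8% of doublet scores removed they had 76.0 and 67.2. Spiny neuron-like nuclei stood 79.7-fold above oligodendrocyte-like nuclei in replicate 1 and 84-fold in replicate 2, per UMI. Per nucleus, the means were 173 and 96.7 RYR2 UMIs in spiny neuron-like nuclei against 0.160 and 0.101 in oligodendrocyte-like nuclei.

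RYR3 followed the same order down to the oligodendrocyte precursors. Its level was 2468 and 2426 CPM in spiny neuron-like nuclei (2447 ± 29.5, SD, n = 2), 368 and 507 CPM in interneuron-like nuclei and 140 and 138 CPM in precursor-like nuclei. The order of the last 2 turned in replicate 1 under 2 alternative filters. With at least 500 genes per nucleus interneuron-like nuclei had 115 RYR3 CPM (44 nuclei) and precursor-like nuclei 141, and with a 20% mitochondrial maximum they had 124 (29 nuclei) and 146. Microglia-like nuclei had 23.1 and 40.7 CPM, oligodendrocyte-like nuclei 26.0 and 21.9, and astrocyte-like nuclei 15.5 and 22.6. The last 3 classes overlapped and could not be ordered. The fold of spiny neuron-like over oligodendrocyte-like nuclei was 95.1 and 111.

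CASQ1 ran the other way per UMI and differed between the libraries in every class. In replicate 1 it was lowest in spiny neuron-like nuclei at 68.3 CPM, then 94.4 CPM in precursor-like, 150 in interneuron-like, 177 in astrocyte-like, 211 in oligodendrocyte-like and 243 in microglia-like nuclei. In replicate 2 the same classes, in that order, had 211, 262, 217, 328, 424 and 422 CPM. Spiny neuron-like nuclei were the lowest in both libraries, though in replicate 2 their counting interval (205 to 216 CPM) overlapped that of interneuron-like nuclei (204 to 231 CPM). In replicate 2 the low class level did not hold for most of these nuclei. Cluster 18, with 932 of the 1318, had 327 CPM, above the interneuron-like and precursor-like levels. The deeper clusters 2 and 5 of that library had 62.0 and 49.5 CPM. The values of neighbouring classes overlapped between libraries. The level in spiny neuron-like nuclei was 0.323 times that in oligodendrocyte-like nuclei in replicate 1 and 0.496 times in replicate 2. Counted per nucleus the direction was the opposite, with 2.39 and 4.66 CASQ1 UMIs per spiny neuron-like nucleus against 0.548 and 0.823 per oligodendrocyte-like nucleus. The former held more UMIs of all genes, with medians of 31701.5 and 17818 against 2201 and 1598.

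**Figure D2:**
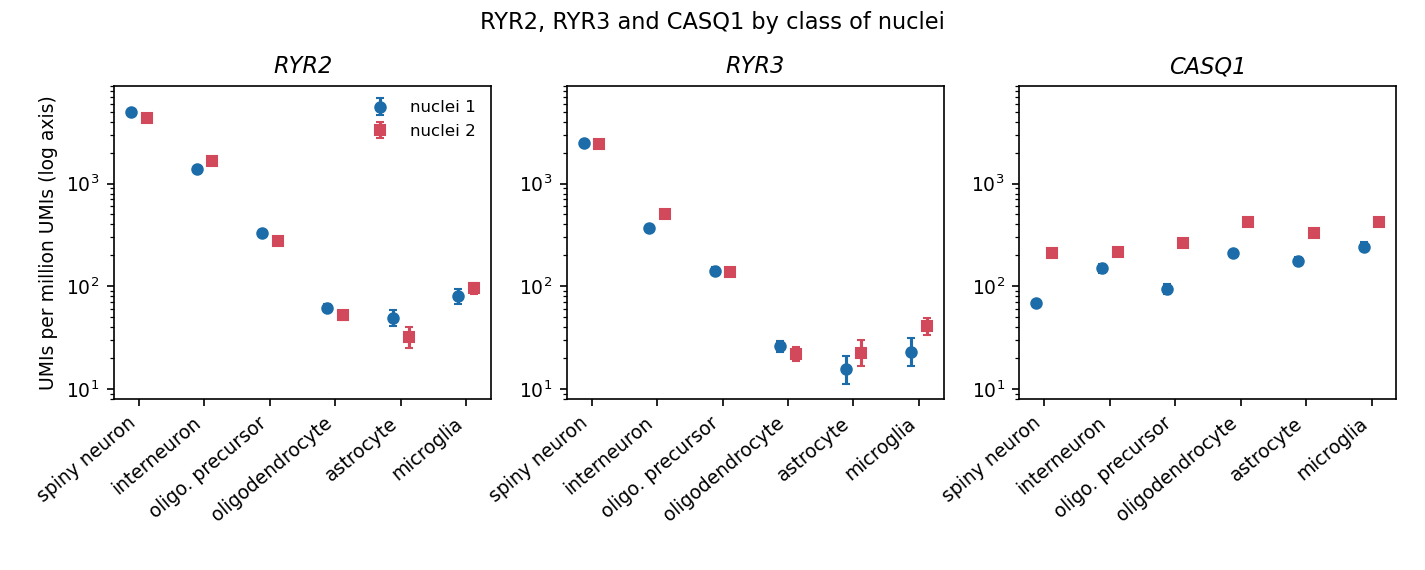
Levels of the 3 genes in CPM on a log axis in 6 classes of nuclei, with 1 point per library and exact 95% Poisson intervals of the summed counts, which cover counting error only. RYR2 falls from 4933 and 4366 CPM in spiny neuron-like nuclei to 49.7 and 32.0 in astrocyte-like nuclei, while CASQ1 is lowest in spiny neuron-like nuclei at 68.3 and 211.

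At an equal depth of 1000 UMIs per nucleus the receptors still separated the classes. RYR2 had at least 1 UMI in 98.8% and 96.6% of spiny neuron-like nuclei in replicates 1 and 2, in 52.5% and 55.5% of interneuron-like nuclei and in 25.5% and 20.6% of precursor-like nuclei. It had one in 6.7% and 5.4% of oligodendrocyte-like nuclei. Unthinned, those shares were 100% in both libraries for spiny neuron-like nuclei and 14.1% and 9.12% for oligodendrocyte-like nuclei. RYR3 was seen at that depth in 90.0% and 88.5% of spiny neuron-like nuclei and in 2.7% and 2.2% of oligodendrocyte-like nuclei. The median spiny neuron-like nucleus held 5 RYR2 UMIs per 1000 in replicate 1 and 4 in replicate 2, and 2 RYR3 UMIs per 1000 in both. CASQ1 was seen in 7.7% and 23.1% of spiny neuron-like nuclei at 1000 UMIs and in 20.1% and 33.6% of oligodendrocyte-like nuclei, so its direction per UMI was kept at equal depth. The numbers left out as shallower than 1000 UMIs were 0 spiny neuron-like nuclei, and 172 and 599 oligodendrocyte-like nuclei in replicates 1 and 2.

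RNA that is free in the suspension gives UMIs in nuclei that do not express a gene. In astrocyte-like, oligodendrocyte-like and microglia-like nuclei RYR2 stood at 0.73% to 2.2% of its spiny level and RYR3 at 0.63% to 1.7%. The 14 spiny neuron markers had medians of 9.2% to 27.0% in the 3 glial classes, above both receptors, and single markers varied widely. BCL11B, a transcription factor of spiny neurons, stood at 0.96% to 1.6% in the astrocyte-like and oligodendrocyte-like nuclei but at 8.2% and 5.1% in microglia-like nuclei. Oligodendrocyte precursor-like nuclei held 6.7% and 6.3% of the spiny level of RYR2 and 5.7% of that of RYR3 in both libraries, against a marker median of 12.7% and 11.3%. In the same nuclei PDE10A, a phosphodiesterase of spiny neurons, was lower than the receptors at 2.7% and 3.0%, while BCL11B was higher at 9.9% and 10.4%, as was PHACTR1 at 7.7% and 11.2%. Interneuron-like nuclei held 28.1% and 37.7% of the spiny level of RYR2 and 14.9% and 20.9% of that of RYR3. The marker median there was 23.9% and 23.0%, below RYR2 and above RYR3. With at least 500 genes per nucleus the interneuron-like shares were lower for both receptors. RYR2 was then 1119 and 1023 CPM against spiny levels of 4936 and 4360, and RYR3 115 and 359 against 2471 and 2422. The marker median was not computed under that filter. The part of free RNA in the receptor UMIs of these 5 classes was not tested. CASQ1 stood at 103% to 355% of its spiny level in the same 5 classes, and the part of free RNA in its UMIs was not tested in any class. In the precursor-like nuclei the highest 5% of nuclei held 25.5% and 31.4% of the RYR2 UMIs.

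Among the spiny clusters, RYR2 and RYR3 were close. Cluster 2 had 4994 and 5103 RYR2 CPM in replicates 1 and 2, cluster 5 had 4867 and 4832, and cluster 7, a small cluster led by FOXP2 and NTNG1, had 4990 and 4389. RYR3 in the same clusters was 2460 and 2577, then 2493 and 2712, then 2336 and 2386 CPM. Clusters 2 and 5 differ in DRD2 and TAC1, and for either receptor they lay nearer to each other than clusters 2 and 18 of replicate 2. Cluster 18 of replicate 2 had 3915 RYR2 CPM and 2275 RYR3 CPM, below cluster 2 of the same library at 5103 and 2577. Cluster 1, a cluster of 182 and 201 nuclei with medians of 1825.5 and 1513 UMIs that did not meet the marker rule for any class, also held 2824 and 2075 RYR2 CPM and 1598 and 1158 RYR3 CPM.

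The interneuron-like nuclei were less even. Cluster 13, marked by PVALB, PTHLH and KIT but also raised for 3 excitatory neuron markers, had medians of 17800 and 18256.5 UMIs. It held 1451 and 1748 RYR2 CPM and 425 and 531 RYR3 CPM. At least 1 RYR3 UMI was found in 39.2% and 50.0% of its nuclei, against 99.9% of the nuclei of spiny cluster 18 in replicate 2, whose median depth was lower. The highest 5% of nuclei held 71.1% and 42.4% of the RYR3 UMIs of cluster 13, against 13.2% and 16.7% in the spiny neuron-like nuclei. Cluster 12, marked by SST, NPY and NOS1, held 1106 and 1004 RYR2 CPM but 113 and 352 RYR3 CPM, and in replicate 2 the highest 5% of its nuclei held 79.8% of the RYR3 UMIs. The doublet caller found 0 doublets in nuclei replicate 2, and the part of doublets with spiny neurons in these uneven values was not tested.

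The 2 receptors were not in 1 ratio everywhere. RYR2 UMIs per RYR3 UMI were 2.00 (95% interval 1.98 to 2.01) in spiny neuron-like nuclei of replicate 1 and 1.80 (1.78 to 1.82) in those of replicate 2. In interneuron-like nuclei they were 3.77 (3.52 to 4.05) and 3.25 (3.10 to 3.41), above the spiny value in both libraries. The value of replicate 1 was higher still under 2 other filters. With at least 500 genes per nucleus the class held 537 RYR2 and 55 RYR3 UMIs there (44 nuclei). With a 20% mitochondrial maximum it held 534 and 55 (29 nuclei). Cluster 13 gave 3.42 and 3.29, while cluster 12 gave 9.75 and 2.85 and so did not repeat between libraries. Precursor-like nuclei were at 2.38 (2.13 to 2.66), above the spiny interval of replicate 1, and at 1.99 (1.77 to 2.24), overlapping that of replicate 2. These intervals are exact for the counts and cover counting error only. At 1000 UMIs, both receptors were seen together in 88.9% and 85.7% of spiny neuron-like nuclei and in 9.9% and 12% of interneuron-like nuclei.

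The libraries also differed within a class. From replicate 1 to replicate 2, CASQ1 was 3.08 times as high in spiny neuron-like nuclei, 2.78 times in precursor-like, 2.01 in oligodendrocyte-like, 1.85 in astrocyte-like, 1.74 in microglia-like and 1.45 in interneuron-like nuclei. In spiny neuron-like nuclei 196 of 11300 genes compared, CASQ1 included, had a ratio at least as high. In the same nuclei RYR2 was 0.885 times and RYR3 0.983 times as high in replicate 2. Within clusters that both libraries filled well, the CASQ1 ratio was not uniform. It was 0.877 in spiny cluster 2, 0.751 in spiny cluster 5 and 1.08 in oligodendrocyte-like cluster 3, but 2.82 in precursor-like cluster 0, 1.98 in oligodendrocyte-like cluster 11 and 1.79 in oligodendrocyte-like cluster 4. Spiny cluster 18 of replicate 2 had 327 CASQ1 CPM, against 62.0 in cluster 2 and 49.5 in cluster 5 of that library. The higher class level of replicate 2 in spiny neuron-like nuclei therefore rested on cluster 18 and on the small cluster 7, which went from 60.8 to 177 CPM. The library, its pool of sheep and its depth change together, so their parts in the CASQ1 difference cannot be told apart.

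**Figure D3:**
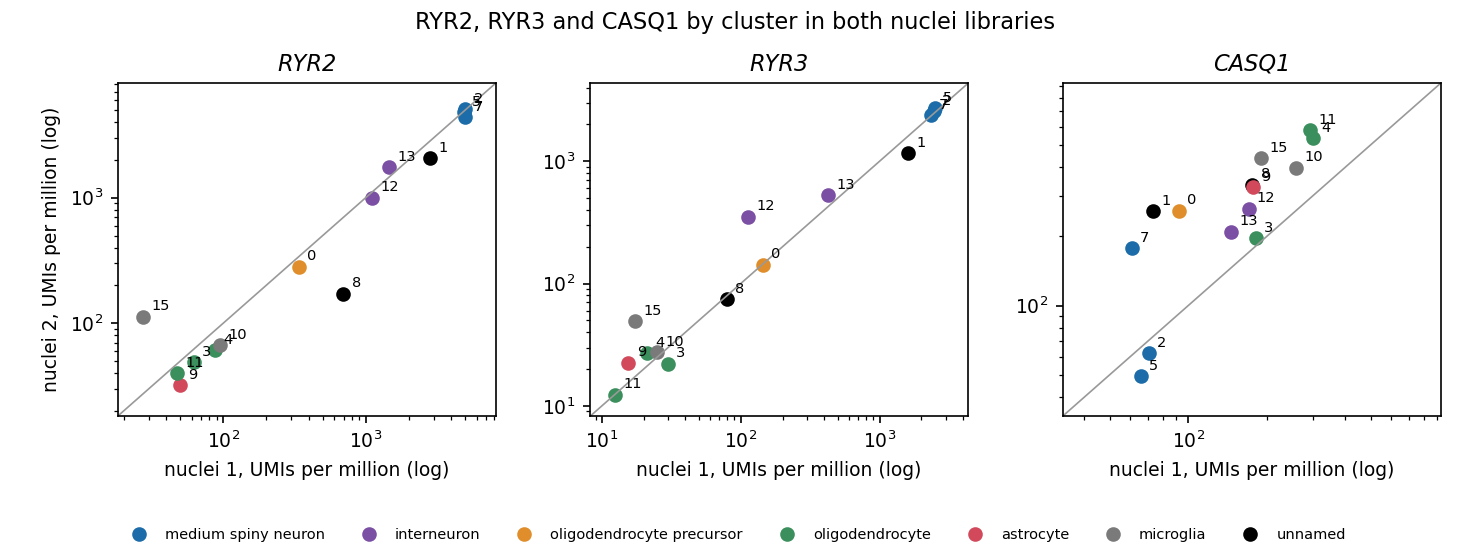
Level of each gene in CPM in nuclei replicate 1 (horizontal) and replicate 2 (vertical), both on log axes, for the 14 clusters with at least 50 nuclei in each library, numbered and coloured by class. The grey line marks equal levels. CASQ1 lies above the line in 12 clusters and below it in clusters 2 and 5. Cluster 18 is not drawn because it had 7 nuclei in replicate 1.

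Of those 14 clusters, 2 were furthest from an equal RYR2 level in fold. In cluster 15, microglia-like nuclei led by IL1B, RYR2 was 27.3 CPM in replicate 1 and 113 in replicate 2, or 4.14 times as high. The replicate 1 level rests on 11 UMIs in 74 nuclei (counting interval 13.6 to 48.8 CPM). In replicate 2 the highest 5% of nuclei held 76.6% of the UMIs. In cluster 8, an unnamed cluster led by ADARB2 with 527 and 280 nuclei, RYR2 was 696 and 172 CPM, or 0.248 times as high in replicate 2. The highest 5% of its nuclei held 76.1% of the RYR2 UMIs in replicate 1.

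Genes whose level over the 14 clusters was most like that of each member were found from log2(CPM + 1) among 7872 genes, by the lower of the Pearson correlations of the 2 libraries. The clusters share library and depth, so these values are descriptions and carry no p. For RYR2 they were CAMK2B (r = 0.98), a subunit of calcium/calmodulin-dependent kinase, CDH9 (0.97), a cadherin, and DLGAP3 (0.97), a scaffold protein of synapses. For RYR3 they were SLC35F3 (0.97), NETO1 (0.96), an auxiliary protein of glutamate receptors, and RYR2 itself (0.96). For CASQ1 they were ACTB (0.92), the cytoplasmic actin, TXN (0.91), thioredoxin, and ACTR10 (0.91), a subunit of dynactin. TXN had 34.1 and 69.9 CPM in spiny neuron-like nuclei and 173 and 368 CPM in oligodendrocyte-like nuclei, so it too was higher in replicate 2, whereas ACTB was 53.4 and 31.2, and 174 and 146.

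Neighbouring genes on the chromosome were read from the order of genes in the RefSeq assembly ARS-UI_Ramb_v3.0, which may not be the build behind the counts. In it RYR2 overlaps a pseudogene, RYR3 a transfer RNA gene and CASQ1 a long noncoding RNA gene, and reads of these could not be told apart from those of the 3 genes here, since the counting of strand is not given. RYR2 lies between ACTN2 and MTR on one side and ZP4 and CHRM3 on the other. ACTN2, an actin crosslinker, was also high in spiny neuron-like nuclei (347 and 342 CPM) and low in oligodendrocyte-like nuclei (8.35 and 6.47 CPM). MTR was highest in microglia-like nuclei (261 and 144 CPM), and ZP4 had 0 UMIs in all libraries. Of the neighbours of RYR3, FMN1 was highest in interneuron-like nuclei (502 and 289 CPM), and CHRM5 and GREM1 had at most 31 UMIs in any library. Beside CASQ1, KCNJ9, a potassium channel subunit, had 10.8 and 24.3 CPM in the nuclei libraries, while IGSF8 had 83.9 and 73.5 and DCAF8 79.1 and 78.7. Both whole cells libraries had UMIs of IGSF8 (40 and 484) and DCAF8 (9 and 274), and KCNJ9 had 0 and 5. AVEN, between RYR3 and CHRM5, and PEA15, between CASQ1 and DCAF8, had no identifier under those names in the counts. Where reads of these neighbours were counted was not tested.

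The other store channels and calsequestrin were placed differently. RYR1 was spread over neurons, at 80.4 and 78.5 CPM in spiny neuron-like and 97.9 and 78.7 CPM in interneuron-like nuclei, and was 11.3 and 12 in oligodendrocyte-like nuclei. ITPR1, an inositol trisphosphate receptor that releases calcium from the same store, was 753 and 680 CPM in spiny neuron-like nuclei and 561 and 565 in oligodendrocyte-like nuclei. ITPR2, a second such receptor, was 20.3 and 32.3 CPM in spiny neuron-like nuclei and from 748 to 1331 CPM in the 4 glial classes, all of which had less RYR2 than spiny neuron-like nuclei. ITPR3 had 34 and 25 UMIs in all nuclei. CASQ2, the cardiac calsequestrin, was low everywhere but highest in spiny neuron-like nuclei (8.04 and 6.61 CPM), in contrast to CASQ1. TRDN, triadin, which ties calsequestrin to the receptor in muscle, was 42.3 and 66.3 CPM in astrocyte-like nuclei and at most 5.43 CPM in the other 5 classes.

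A list of 61 genes of the calcium store and its partners gave 52 symbols and 54 identifiers in the files, 51 of them besides the 3 members. Of the 51, 41 had at least 100 UMIs in the 6 classes in each library. Spiny neuron-like nuclei led for 9 of these in both libraries (22.0%, against 9.33% of 11715 genes): ATP2A2, ATP2B1, ATP2B2, CAMK2B, CASQ2, HOMER1, ITPR1, JPH4 and STIM2. Interneuron-like nuclei led for another 9 (22.0%, against 7.96% of all genes), of which 2 were identifiers named CALM2 that may share reads. Microglia-like nuclei led for 6 (14.6%, against 26.4% of all genes). These shares are descriptions of a list chosen with earlier results known.

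**Figure D4:**
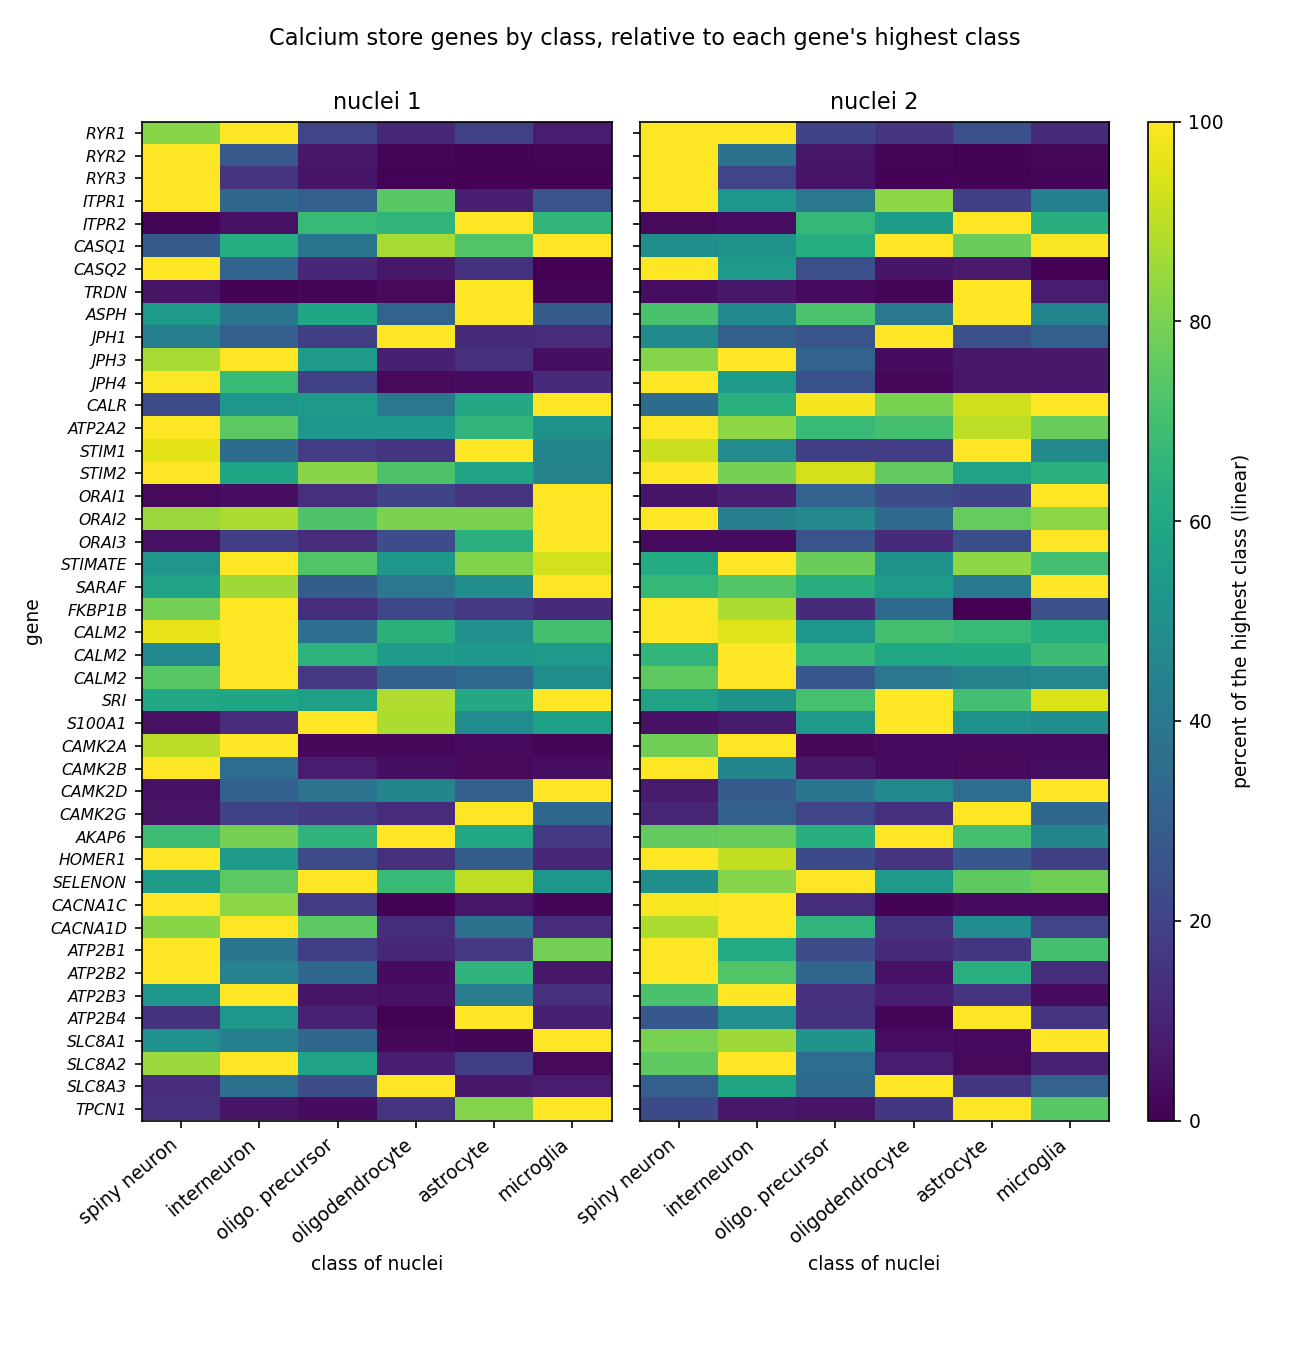
Level of each gene in 6 classes of nuclei as a percent of its own highest class (linear colour scale), for the 3 members and the 41 other list genes with at least 100 UMIs in the classes of each library, in the order of the list. RYR2 and RYR3 peak in spiny neuron-like nuclei and ITPR2 in astrocyte-like nuclei in both libraries. Levels cannot be compared between genes.

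Nuclei were compared with whole cells for the list genes besides the members, a list itself chosen with earlier results of these data known. The test was edgeR's quasi-likelihood test over all 15781 genes kept, with composition scaling (TMM) and Benjamini-Hochberg adjustment at 0.05. Of 46 list genes tested, 16 were called higher in nuclei (34.8%, against 29.8% of all genes) and 8 lower (17.4%, against 22.4% of all genes), and 22 were not called. Both shares were near those of all genes. The median fold change of the list was 0.93 on the log2 scale, against 0.61 for all genes. That order turned without whole cells replicate 2, to 2.03 against 4.37, and with no filter on low counts, to 1.256 against 1.496. By role, 4 of 7 genes of store-operated entry were called higher and 0 lower, and 1 of the 4, ORAI3, had an edgeR adjusted p of 0.0583 with the pool of sheep as a replicate block. Of 8 luminal and junction proteins, 4 were called higher and 2 (CALR and JPH3) lower, but with the same block the edgeR adjusted p was 0.0924 for ASPH, 0.0669 for CASQ2 and 0.100 for TRDN among the higher genes and 0.412 for JPH3. Of 13 receptor partners, 1 was called higher and 5 lower, and 3 of these 5 were identifiers of 1 gene name, CALM2. With library size alone, 41 were called higher (against 79.4% of all genes) and 2 lower (against 3.16% of all genes), and 6 of the 8 lower genes turned to the other sign. That scaling also moved the median of all genes from 0.61 to 3.66, so the turns are not particular to these genes. With the block the calls were 10 higher and 6 lower, against 20.4% and 14.2% of all genes. Without nuclei replicate 1 they were also 10 and 6, of 44 list genes tested, against 18.8% and 16.7% of all genes. With only barcodes of at least 200 genes, 19 of 45 were higher and 5 lower, against 27.4% and 11.7% of all genes. The replicates are pools of animals, and p-values measure only the spread between them.

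Among the channel family, RYR1 was not called. Its levels were 4.48 and 6.76 CPM in whole cells and 62.3 and 57.9 in nuclei, with a fold change of 0.24 ± 0.42 (log2, SE, edgeR adjusted p = 0.659) after composition scaling and 3.26 with library size alone. ITPR1 was called higher in nuclei at 1.61 ± 0.51 (edgeR adjusted p = 0.00924), but its adjusted p was 0.0641 with the block. ITPR2 was called higher at 1.23 ± 0.49 (edgeR adjusted p = 0.0327, and 0.162 with the block). CASQ2 was called higher at 3.56 ± 1.21 (edgeR adjusted p = 0.0136, and 0.0669 with the block), where whole cells had 0 and 1 molecules and nuclei 398 and 221. ITPR3 had 0 UMIs in both whole cells libraries and was not called (edgeR adjusted p = 0.217). These are each gene's own values on the composition-scaled fold, and no difference between them and the members was tested.

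Of the remaining list genes with UMIs in all 4 libraries, the largest rises in nuclei were in CACNA1C, SLC8A3 and TPCN1. CACNA1C, the pore subunit of an L-type calcium channel, went from 1.79 and 2.29 CPM in whole cells to 354 and 394 in nuclei (4.35 ± 0.59, log2, SE, edgeR adjusted p = 2.58e-07). SLC8A3, a sodium/calcium exchanger, rose by 4.09 and TPCN1, a channel of acidic calcium stores, by 3.73. The largest falls were in S100A1 and 2 identifiers named CALM2. S100A1, a calcium-binding modulator of ryanodine receptors, went from 80.7 and 51.3 CPM in whole cells to 12.6 and 14.4 in nuclei (-5.20 ± 0.55, log2, SE, edgeR adjusted p = 4.23e-09). CALM2, calmodulin, was -3.94 at ENSOARG00020014681 and -2.83 at ENSOARG00020017821. The latter is above 0 (0.20) with library size alone, a scaling under which the median of all genes was 3.66. The 3 identifiers of that name may share reads, so their values are uncertain.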

How the data were processed

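The members and the gene list were chosen with earlier results of these data known. The authors deposited raw counts (UMIs per gene and barcode). Per the file headers they came from Cell Ranger 6.0.1 (whole cells) and 7.0.0 (nuclei). The submitters' processing notes also name Cell Ranger 2.1.1 and STAR 2.7.2a. The genome build, annotation release, barcode filter and intron setting are not given in the sources used here.

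Counts were summed per library and tested with edgeR 4.0.16 in R 4.3.3 (filterByExpr, TMM, no block). DESeq2 1.42.0 was an alternative. On simulated counts for the 15781 genes, edgeR found 28.0% of 4-fold changes and 94.7% of 16-fold changes and called 1 of 14909 unchanged genes. Apart from the changed genes, the simulated libraries of both kinds shared the same expression profile. They lacked the composition difference of the real libraries, so they do not give the rate of false calls in the real comparison. The titles pair the kinds by sheep pool. Deviations of same-pool libraries correlated at -0.06 over 1765 genes, and blocked values are given where calls change.

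Nuclei were kept from 200 genes up and to a mitochondrial share of 5% (8700 and 8388). Scrublet (expected rate 0.08) called 390 doublets in replicate 1 and 0 in replicate 2, so it did not work there. The remaining 8310 and 8388 nuclei were clustered with scanpy 1.11.5 (2000 variable genes without the list genes, 30 components, 15 neighbours, Leiden resolution 0.5, no integration) into 19 clusters. A marker counted when at least 2-fold above the mean of the other clusters and seen in 10% of nuclei, and a name needed 3, thresholds set after seeing the data. Named besides the members were all other ryanodine receptors, inositol trisphosphate receptors and calsequestrins. Also named were the 3 list genes per direction with the largest called change and UMIs in all libraries. The 3 most similar genes were named too, with the nearest 2 named neighbours a side, of which AVEN and PEA15 had no counts. Other genes named were chosen after their values were seen. Intervals are exact 95% Poisson or binomial. No sequences are printed.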

Additional observations from a re-analysis of the deposited data

Results flagged for a closer look

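RYR1 (ENSOARG00020021448) went opposite ways in the pools of sheep after composition scaling. The log2 difference of nuclei over whole cells was 1.12 in replicate 1 and -0.12 in replicate 2. Opposite signs in the pools were found for 8 of the 46 list genes tested, RYR1 included. Whole cells replicate 1 held 5 UMIs of the gene. Whether the pools differ was not tested.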

How the results depend on the processing

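On the log2 scale, the ratio of nuclei to whole cells moved by more than the spread between libraries when mitochondrial genes were left out of the totals, to 3.50 for RYR2 and 3.79 for RYR3, and with barcodes of at least 200 genes, to 3.10 for RYR2, 2.37 for RYR3 and 3.21 for CASQ1 (a lower bound). Leaving out each library in turn gave 5.69 to 7.38 for RYR2, 6.46 to 7.17 for RYR3 and lower bounds of 5.99 to 10.10 for CASQ1. Spiny neuron-like over oligodendrocyte-like nuclei moved with thinning to 1000 UMIs, from 6.35 to 6.07 for RYR2 and from 6.68 to 6.47 for RYR3, and CASQ1 stayed below 0 under all 9 alternatives run. Leaving out a library gave 6.32 to 6.39 for RYR2, 6.57 to 6.79 for RYR3 and -1.63 to -1.01 for CASQ1. Removing the highest 8% of doublet scores, an alternative chosen after seeing the data, gave 6.37, 6.70 and -1.35. Higher list calls were 41 with library size alone, 10 with the replicate block and 10 to 20 leaving out a library. Lower calls were 2 with library size alone, 5 with barcodes of at least 200 genes and 6 to 9 leaving out a library. With a lone library left in a kind, it is assumed to vary like the other kind. With at least 500 genes per nucleus or a 20% mitochondrial maximum, cluster naming left fewer interneuron-like nuclei, and in replicate 1 their RYR3 was 115 and 124 CPM, below the precursor-like 141 and 146. The causes were not tested. In whole cells replicate 1, the levels of RYR2 and RYR3 rest on 20 and 12 UMIs.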
